A study of Mus musculus with 6 samples.

Results

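The 39 Hox genes of the mouse lie in 4 clusters, HoxA on chromosome 6, HoxB on chromosome 11, HoxC on chromosome 15 and HoxD on chromosome 2, and 24 of them had a row in a table of 18537 known-gene clusters measured in mammary luminal progenitors (LPs). The members were chosen by symbol alone, as every row named Hox with a cluster letter and a number. RNA-seq had been done on LPs that were sorted by FACS as Lin-CD24loCD29+CD61+ cells from mature virgin mice, 3 libraries of Robo1+/+ littermates named gh03, gh09, gh15 and 3 of Robo1-/- littermates named gh06, gh12, gh18. Each library held the cells of 2 animals and was made from poly(A)+ RNA. The Robo1-/- mice were Robo1 tm1Matl/tm1Matl, an allele carried by every cell of the animal and not by the mammary epithelium alone. The methods name inguinal, abdominal and thoracic mammary fat pads as the source of the cells, and the pads that went into each library are not given in the sources used here.

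Hox genes encode homeodomain transcription factors that give cells their position along the body axis. Within a cluster the genes stand in the order in which they act, from low group numbers at the 3′ end, which act towards the head and respond to retinoic acid, to high group numbers at the 5′ end, which act towards the tail. Genes with the same group number in different clusters are paralogues, and many adult tissues keep the Hox genes of their position switched on. In the mammary gland Hoxc8 acts in the placement of the mammary buds and the group 9 genes Hoxa9, Hoxb9 and Hoxd9 act in the growth of the gland in pregnancy.

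Values are normalised read counts, that is, reads divided by 1 size factor per library. Depth ran from 9727191 to 17433868 reads per library, and 3 reads, the smallest number taken as detected, had a value of 2.35 to 4.38. Values are given throughout in the order gh03, gh09, gh15 for Robo1+/+ and gh06, gh12, gh18 for Robo1-/-. Robo1 had values of 289, 574 and 541 in Robo1+/+ LPs and 130, 214 and 177 in Robo1-/- LPs, so the genotypes did not overlap and reads of the gene remained in Robo1-/-. Library gh18 stood apart from the other 5 in base composition. Across 12444 genes, its log2 deviation from the mean of the libraries fell with the GC content of the transcript (Spearman's rho -0.81, against 0.17 to 0.61 in the other libraries), and it was -0.40 at the median for the 3329 genes of 50 to 55% GC. The LP markers Kit (4209 to 5644) and Elf5 (2366 to 3901) were high in every library. Krt8 (11182 to 43715), on the same list, marks luminal cells in general. Itgb3, which encodes the sort marker CD61, had 387 to 1317. Of the markers of hormone-sensing mature luminal cells, Prlr (20097 to 37136), Esr1 (1346 to 2694) and Pgr (1721 to 5481) were also present throughout. Gata3, Foxa1, Areg and Ly6a were too. The rest of that list varied more, with Cited1 at 286 (gh18) to 3954 (gh12), Wnt4 at 4.38 (gh18) to 602 (gh03) and Tnfsf11 at 0.92 (gh12) to 1660 (gh03). The markers present throughout did not separate the sorted cells from mature luminal cells.

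Promoters of 3 members are given because their genes represent both kinds of behaviour described here. Hoxb4 had reads in every library, and its group 4 paralogue Hoxc4, with Hoxa5, the member with the most reads among those missing from some libraries, did not. Each sequence is from RefSeq on GRCm38.p6, 5′ to 3′, and runs from 250 bases before to 50 bases after a gene start. Capitals mark a match to CCAAT on either strand. Hoxb4 is chr11:96318017-96318316 on the plus strand, Hoxc4 is chr15:103034145-103034444 on the plus strand and Hoxa5 is chr6:52204538-52204837 on the minus strand.
Hoxb4: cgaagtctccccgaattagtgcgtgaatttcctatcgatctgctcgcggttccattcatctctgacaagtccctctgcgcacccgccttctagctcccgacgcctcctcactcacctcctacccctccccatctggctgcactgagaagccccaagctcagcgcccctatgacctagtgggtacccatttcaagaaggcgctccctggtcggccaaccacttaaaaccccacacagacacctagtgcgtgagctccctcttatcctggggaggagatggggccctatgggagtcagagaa
Hoxc4: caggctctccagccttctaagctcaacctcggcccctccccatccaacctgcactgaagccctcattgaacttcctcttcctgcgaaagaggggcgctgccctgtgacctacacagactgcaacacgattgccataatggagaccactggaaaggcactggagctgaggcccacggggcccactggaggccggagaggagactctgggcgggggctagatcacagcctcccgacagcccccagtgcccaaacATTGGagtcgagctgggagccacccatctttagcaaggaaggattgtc
Hoxa5: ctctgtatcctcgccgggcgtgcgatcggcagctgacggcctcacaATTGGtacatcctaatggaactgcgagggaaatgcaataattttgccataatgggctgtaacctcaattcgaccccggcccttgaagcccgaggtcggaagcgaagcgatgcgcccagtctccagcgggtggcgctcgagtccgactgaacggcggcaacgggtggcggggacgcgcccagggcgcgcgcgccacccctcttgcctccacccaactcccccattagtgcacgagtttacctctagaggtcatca

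Motifs were searched on both strands, namely TATAAA for the box of that name, CCAAT for the CCAAT box, and TGATNNAT for a site bound by Pbx and Hox proteins together. No match to any of them was found in the Hoxb4 window, and the windows of Hoxc4 and Hoxa5 held 1 CCAAT match each. CCAAT was found in 37.4% of the 32851 promoters of the same length, TATAAA in 13.6% and TGATNNAT in 8.85%. Of the 24 members, 12 matched the RefSeq table by symbol, with 14 promoters between them, and CCAAT was found in 6 of these, TATAAA in 2 and TGATNNAT in 2. The windows held 14 CG dinucleotides in Hoxb4, 9 in Hoxc4 and 29 in Hoxa5, against a median of 7 for all promoters.

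The HoxB cluster held most of the Hox reads of LPs in every library but gh12. Of 1993 reads on the 24 members over the 6 libraries, 1219 (61.2%) fell on HoxB genes, 419 (21.0%) on HoxA, 245 (12.3%) on HoxC and 110 (5.52%) on HoxD. HoxB held 53.4%, 100% and 99.4% of the Hox reads in the Robo1+/+ libraries and 64.7%, 42.2% and 100% in the Robo1-/- libraries. The share of HoxA rested on gh12, which gave 307 of its 419 reads, and without gh12 it was 10.2%, with 76.4% for HoxB, 8.98% for HoxC and 4.44% for HoxD. By gene, 8 of the 10 annotated HoxB genes and 7 of the 9 HoxC genes had a row, against 5 of 11 in HoxA and 4 of 9 in HoxD. The 15 annotated genes with no row under their own symbol came from all 4 clusters and included Hoxa13, Hoxb13, Hoxc13 and Hoxd13, the last genes at the 5′ ends. The table lists clusters with at least 1 read in some library, and whether reads of these genes were counted under another row is not known.

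By position, the row with the lowest group number was Hoxa5 in HoxA and Hoxd8 in HoxD, whereas in HoxB the highest levels were those of Hoxb3 and Hoxb2. In groups 1 to 4, 4 of 12 annotated genes had a row and held 1194 reads, 111 of them on Hoxc4 and the rest on Hoxb2, Hoxb3 and Hoxb4. In groups 5 to 8, 10 of 11 genes had a row and held 366 reads, and in groups 9 to 13, 10 of 16 had a row and held 433 reads. The Robo1+/+ libraries had 85, 0 and 0 reads of groups 9 to 13, and the Robo1-/- libraries had 73, 275 and 0. Both genotypes thus had libraries with and without reads of the 5′ genes.

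**Figure D1:**
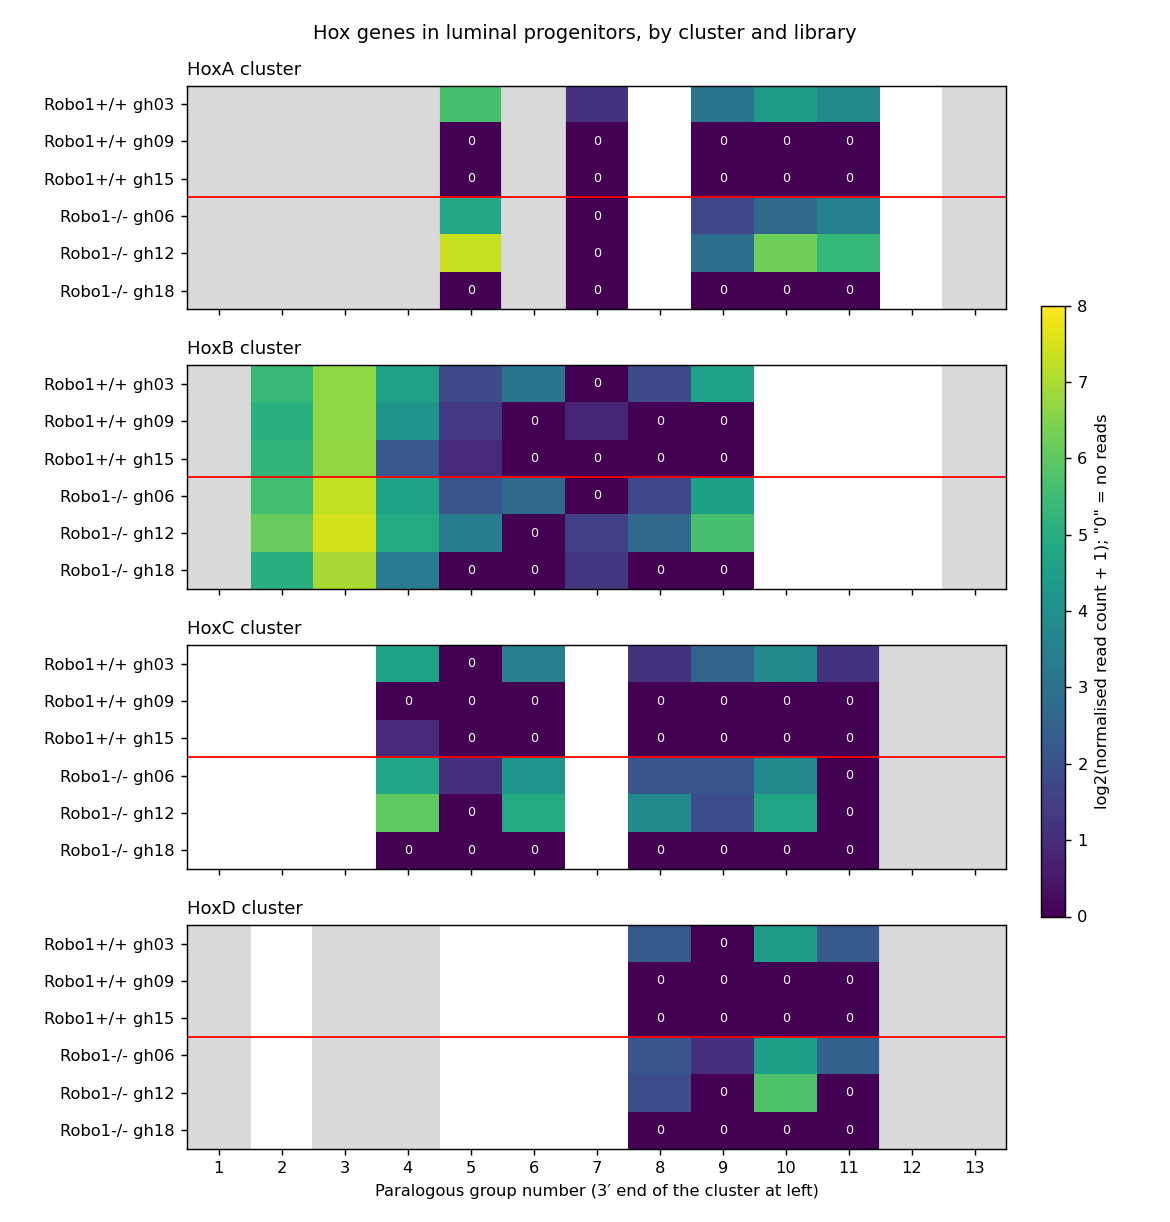
Level of each Hox gene, as log2(normalised read count + 1) in colour, with the 6 libraries as rows (Robo1+/+ above the red line) and the paralogous group number as columns, for each of the 4 clusters; a 0 marks no reads, grey an annotated gene without a row and white a number at which the mouse cluster has no gene. Hoxb2, Hoxb3 and Hoxb4 are coloured in all 6 libraries, and the other clusters are at 0 in gh09, gh15 and gh18 except for 1 read of Hoxc4 in gh15.

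Hoxb2, Hoxb3 and Hoxb4 were the 3 of 24 members with at least 3 reads in every library, and no other member had even 1 read in all 6. Hoxb3 (kgCluster4105 in the table), best known with Hoxb4 from blood stem cells, was the highest member per length, with a mean of 41.9 normalised reads per kb of exon (SD 11.2, n = 6), at the 43.7th percentile of the rows that had a length. Its values were 98.0, 99.5 and 103 in Robo1+/+ LPs and 153, 180 and 123 in Robo1-/- LPs. Each Robo1-/- library was above all 3 Robo1+/+ libraries.

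Hoxb2, which acts in hindbrain patterning, had a mean of 13.2 normalised reads per kb. Its values were 42.0, 33.7 and 37.5 in Robo1+/+ LPs and 47.2, 69.6 and 32.1 in Robo1-/- LPs, with overlap, since gh18 was the lowest of the 6. Exons of Hoxb2 and Hoxb3 overlap those of the antisense gene Hoxb3os over 1632 and 1140 bases. The use of strand in counting is not given in the sources used here, so reads of Hoxb3os could not be told apart from theirs.

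Hoxb4 had values of 22.9, 16.5 and 3.75 in Robo1+/+ LPs and 24.2, 28.4 and 8.75 in Robo1-/- LPs, from 4 reads in gh15 to 31 reads in gh12. The genotypes overlapped and the lowest library of each was gh15 and gh18. Its exons overlap Mir10a on the same strand over 220 bases. Next to it, Hoxb5 had 1 to 10 reads in 5 libraries and none in gh18.

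Of the 24 members, 12 were seen in 3 libraries and not in the other 3, with both genotypes on each side. The 12 genes Hoxa5, Hoxa9, Hoxa10, Hoxa11, Hoxb8, Hoxb9, Hoxc6, Hoxc8, Hoxc9, Hoxc10, Hoxd8 and Hoxd10 had at least 1 read in gh03, gh06 and gh12 and no read in gh09, gh15 and gh18. They come from all 4 clusters, 4 from HoxA, 2 from HoxB, 4 from HoxC and 2 from HoxD. Among all 18537 rows, 49 (0.264%) had this distribution, which was picked out after the values had been seen and was not tested. It did not follow the labels, since gh03 is Robo1+/+ and gh06 and gh12 are Robo1-/-.

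Of the 15142 rows with at least 20 reads in all, 9 had this distribution, and 7 of those were Hox genes, out of 11 Hox genes with that many reads. Among the others was Nr2f1, a nuclear receptor, with 27, 3 and 45 reads in gh03, gh06 and gh12, which was named after its values were seen.

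Hoxa5, which acts in lung and mammary epithelium, had the most reads of the 12. Its values were 49.6, 0 and 0 in Robo1+/+ LPs and 27.6, 161 and 0 in Robo1-/- LPs, that is 39, 0, 0, 24, 176 and 0 reads. At the level of gh06, the lowest of the 3 libraries with reads, 35.2 reads would have been counted in gh09, 29.4 in gh15 and 18.9 in gh18.

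Hoxa10, Hoxd10 and Hoxa11, from groups that act in limb and uterus, had the same distribution. Hoxa10 had values of 20.4, 0 and 0 in Robo1+/+ LPs and 5.75, 74.2 and 0 in Robo1-/- LPs. Hoxd10 had 20.4, 0 and 0 in Robo1+/+ LPs and 21.9, 53.1 and 0 in Robo1-/- LPs. Hoxa11, whose exons overlap the antisense Hoxa11as over 1038 bases, had 12.7, 0 and 0 and then 10.4, 39.4 and 0. In each case gh12 was the highest library, and the genotypes overlapped.

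Hoxb9, a group 9 gene, had values of 24.2, 0 and 0 in Robo1+/+ LPs and 21.9, 50.4 and 0 in Robo1-/- LPs. Its paralogue Hoxa9 had 7.63, 0 and 0 and then 2.30, 6.41 and 0, and Hoxc9 had 5.09, 0 and 0 and then 3.45, 2.75 and 0, so these were highest in gh03. Hoxd9 had 1 read in all. Of the 17 members with reads in each of gh03, gh06 and gh12, gh12 was the highest of those libraries for 14 and gh03 for 3.

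The last of the 12 rested on few reads, with 2, 2 and 6 reads in gh03, gh06 and gh12 for Hoxb8 and 3 in each for Hoxd8. Members outside these classes were rare or lay between them. Hoxb6 had 6 reads in gh03 and 5 in gh06 and none elsewhere, and Hoxd11 had 3 and 4 reads in the same 2 libraries. Hoxa7, Hoxc5, Hoxc11 and Hoxd9 had 1 read each over the 6 libraries, which is below the number taken as detected. Hoxb7 had 1 read in gh09, 2 in gh12 and 1 in gh18, and it shares 1069 exon bases on the same strand with Hoxb8, so the reads of these neighbours could not be told apart.

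As a sum, the 21 members other than Hoxb2, Hoxb3 and Hoxb4 had 166, 3 and 2 reads in the Robo1+/+ libraries and 151, 587 and 1 in the Robo1-/- libraries. Hoxb2, Hoxb3 and Hoxb4 together had 128, 191 and 154 reads and 195, 303 and 112 reads. Their share of the Hox reads was thus 43.5% in gh03 (95% Wilson interval 38.0 to 49.3), 56.4% in gh06 (51.1 to 61.5) and 34.0% in gh12 (31.0 to 37.2). In the other libraries nearly all Hox reads were theirs. Their share was 98.5% in gh09 (95.6 to 99.5), 98.7% in gh15 (95.4 to 99.6) and 99.1% in gh18 (95.2 to 99.8). These intervals cover counting error only. The summed value of Hoxb2, Hoxb3 and Hoxb4 was 163, 150 and 144 in Robo1+/+ LPs and 224, 278 and 163 in Robo1-/- LPs, so gh03 was level with gh18 and gh06 and gh12 were higher.

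**Figure D2:**
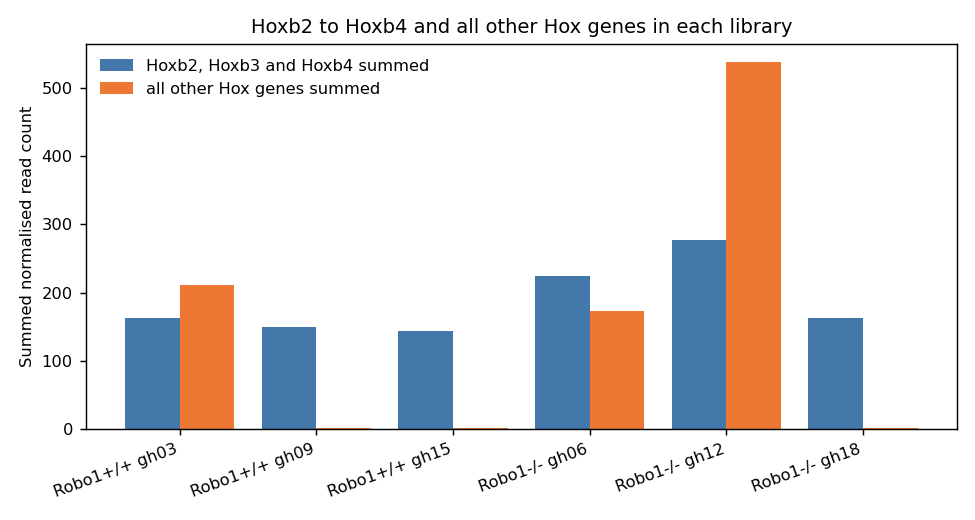
Summed normalised read count of Hoxb2, Hoxb3 and Hoxb4 (blue) and of the other 21 Hox genes (orange) in each library. The blue bars lie between 144 and 278 in all 6 libraries, and the orange bars are 211, 174 and 538 in gh03, gh06 and gh12 and at most 2.35 in gh09, gh15 and gh18.

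Genes that flank the clusters, named for their place, had their reads in other libraries too. Skap2 and Hibadh, on either side of HoxA, had values of 481 to 718 and 1038 to 1436 over the 6 libraries. Smug1 and Calcoco1, near the ends of HoxC, had 121 to 304 and 461 to 1378, and Lnp and Mtx2, beside HoxD, had 299 to 714 and 390 to 929. The genes around HoxB were low, with 3 to 13 reads of Skap1 and 4 to 19 of Ttll6 per library, and 1 read of Calcoco2 in each of 4 libraries, gh03, gh15, gh06 and gh18. Apart from Calcoco2, each of these genes was read in all 6 libraries. Under the symbols of flanking genes there were 14 rows. Of these, 2 (Atp5g2 and the Hnrnpa1 row kgCluster6546) were higher in each of gh03, gh06 and gh12 than in the other 3 libraries. For all rows the share was 3.54%. Lower in all 3 was 1 row (Smug1), against 3.91% of all rows. Hnrnpa1 had other rows, and the place of kgCluster6546 in the genome was not checked. The Hnrnpa1 row kgCluster9136, numbered close to Hoxc4 (kgCluster9132), overlapped, with gh18 the highest (15467).

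Marker genes of other cells were set beside these values, and some of them were higher in the libraries with the Hox reads. The summed level of 10 fibroblast markers, all with a row, was 892, 1312 and 444 in gh03, gh06 and gh12, and 929, 851 and 789 in gh09, gh15 and gh18. Dcn, the highest of them, made up as much as 73.8% of these sums and was lowest in gh12 (88.9, against 389 to 655 in the others). Without it the sums of the other 9 were 503, 671 and 355 against 274, 328 and 207, higher in each of the libraries with the Hox reads. The gap between gh12 (355) and gh15 (328) did not hold for most of these genes. Only Pdgfra (120 in gh12, 55.4 in gh15) and Col5a1 were higher in gh12 than in gh15. Fbn1, Col6a3, Lum, Col1a2, Col3a1, Col1a1 and Pdgfrb were lower in gh12. In the LP, mature luminal, basal, endothelial, leukocyte and adipocyte lists the sums without the highest member overlapped. For basal markers without Oxtr they were 2117, 1555 and 890 against 758, 1380 and 686. By single gene, 1 of the 10 fibroblast markers, the collagen gene Col5a1, was higher in all 3 libraries with the Hox reads. Its values were 29.3, 16.1 and 10.99 against 4.70, 6.57 and 5.84, and 3.54% of all rows were higher in this way. Lower in all 3 were 0 fibroblast markers, against 3.91% of all rows.

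The summed level of 10 basal markers, all with a row, was 2548, 1864 and 1080 against 907, 1564 and 1198. Of these, 2 were higher in all 3 libraries with the Hox reads, the smooth muscle genes Acta2 (508, 335 and 247 against 129, 219 and 144) and Myh11 (209, 204 and 102 against 52.5, 86.3 and 77.3), and 0 were lower in all 3. Of all rows, 3.54% were higher and 3.91% lower in all 3. The basal keratin Krt14 overlapped, at 407, 245 and 74.2 against 84.7, 296 and 68.6. In the other marker lists, Gata3 and Cited1 among 10 mature luminal markers and Kdr among 7 endothelial markers were higher in all 3, the endothelial Tek was lower, and 0 of the 12 LP, 6 leukocyte and 2 adipocyte markers with a row did either. The same shares of all rows, 3.54% higher and 3.91% lower, stand beside these counts. Kdr and Tek lay near the number of reads taken as detected. Kdr had 1, 3 and 1 reads against 0, 0 and 0, and Tek had 0, 2 and 0 against 6, 4 and 2. These comparisons were added after the values had been seen.

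For 7 of 8 endothelial markers with a row (Emcn had none) the sums were 2504, 1730 and 1697 against 2307, 1409 and 210. For 6 of 8 leukocyte markers with a row they were 118, 121 and 123 against 161, 136 and 96.3, and the T cell marker Cd3e had no row. For 2 of 6 adipocyte markers with a row they were 372, 152 and 57.7 against 70.5, 200 and 223, and the defining markers Adipoq and Plin1 had no row. For the whole lists the sums overlapped between the libraries with and without the Hox reads. Without Dcn the fibroblast sums did not overlap, though most of the remaining genes were lower in gh12 than in gh15. The part of these cells in the distribution of Hox reads was not tested. In RNA of pooled cells, fewer cells that express a gene and less RNA per cell cannot be told apart. Of the marker lists, 1 of 12 LP markers, Cd24a, and 1 of 10 mature luminal markers, Pgr, had an unadjusted limma p under 0.05 between the genotypes, as did 1.69% of all genes, with an adjusted p of 0.858 for both, and 0 of the basal, fibroblast, endothelial, leukocyte and adipocyte markers tested did. The part of the fat pads used for each library was not tested.

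Hoxc6 ranked 3 of 7 in its cluster and 11 of 24 among all members per length, and 2 of 7 and 10 of 24 by reads not divided by length. The gene (kgCluster9129 in the table) lies at chr15:102828688-102842312 on the plus strand of NCBI37, between Hoxc5 on its 3′ side and Hoxc8 on its 5′ side. Its values were 10.2, 0 and 0 in Robo1+/+ LPs and 17.3, 29.3 and 0 in Robo1-/- LPs, from 8, 0, 0, 15, 32 and 0 reads. The genotypes overlapped, since gh18 was at 0 as gh09 and gh15 were. At the level of gh03, 13.0 reads would have been counted in gh09, the deepest library.

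The mean of Hoxc6 over the 6 libraries was 3.78 normalised reads per kb (SD 4.81, n = 6). Hoxc4 ranked first in the cluster with 7.41 per kb (SD 9.69), and Hoxc10 second with 4.46 per kb (SD 5.47). Below it came Hoxc8 with 1.27 (SD 2.19), Hoxc9 with 0.774 (SD 0.904), Hoxc11 with 0.105 and Hoxc5 with 0.0656. Each SD exceeded its mean, because 3 libraries had few or no reads. The genes share the same libraries, so the SD of each gene cannot decide whether neighbours in this order differ. Per kb, Hoxc4 was above Hoxc6, and Hoxc6 above Hoxc8, in each of gh03, gh06 and gh12. The differences between genes were not tested. The order of the genes along the chromosome was not the order of their levels, since the highest, Hoxc4, and the second highest, Hoxc10, lie on opposite sides of Hoxc6, and the next gene on its 3′ side, Hoxc5, had 1 read.

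Within single libraries the order was much the same. Per kb, Hoxc4, Hoxc10 and Hoxc6 had 9.45, 6.66 and 4.07 in gh03 and 24.7, 13.4 and 11.7 in gh12, with Hoxc4 highest and Hoxc6 below Hoxc10 in both. In gh06 they had 9.90, 6.63 and 6.90, so that Hoxc6 was level with Hoxc10. The 8 reads of Hoxc6 in gh03 had an exact 95% Poisson interval of 3.45 to 15.8 reads and the 32 in gh12 one of 21.9 to 45.2, which limits how finely these levels can be ordered.

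The values of the neighbours show the same libraries. Hoxc4 had 24.2, 0 and 0.94 in Robo1+/+ LPs and 25.3, 63.2 and 0 in Robo1-/- LPs, the 0.94 being 1 read. Hoxc10, with exons that share 166 bases with Gm20398, had 12.7, 0 and 0 and then 12.7, 25.7 and 0. Hoxc8 had 1.27, 0 and 0 and then 3.45, 12.8 and 0, that is 1, 3 and 14 reads.

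**Figure D3:**
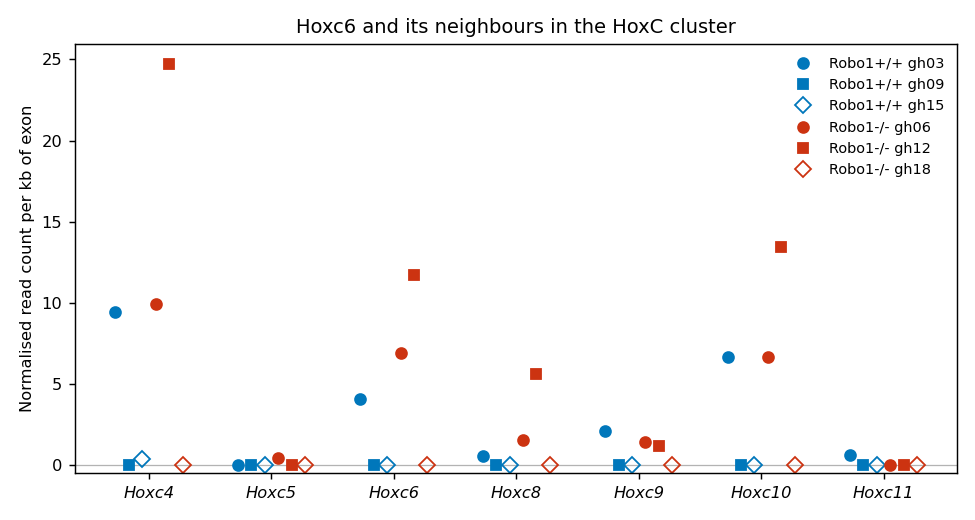
Normalised read count per kb of exon of the 7 HoxC genes with a row, 1 point per library, Robo1+/+ in blue and Robo1-/- in red, genes in 3′ to 5′ order. For Hoxc4, Hoxc6, Hoxc8 and Hoxc10 the highest point is gh12, at 24.7, 11.7, 5.58 and 13.4, and the points of gh09, gh15 and gh18 lie at or next to 0 for every gene.

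The comparison of the genotypes asks whether loss of Robo1 changed Hox expression in LPs. No member passed the test. By limma on log2(value + 1), 9 of the 24 members passed the filter on reads per library among 13692 genes, and 0 had an adjusted p under 0.05 (Benjamini-Hochberg), as for all genes (0%). None of the 9 had an unadjusted p under 0.05, where 1.69% of all genes did, and DESeq2 and edgeR on recovered reads found 0 members at that level too, against 1.81% and 1.61% of all genes. DESeq2 gave a value for all 24 members.

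Hoxb3 had the smallest p of the 9. It averaged 100 ± 2.68 (SD, n = 3) in Robo1+/+ LPs and 152 ± 28.5 in Robo1-/- LPs. Its log2 fold change was 0.58 (SE 0.28), with an unadjusted limma p of 0.0805 and an adjusted p of 0.858. It was the 1 member of the 9 tested whose genotypes did not overlap, as was the case in this direction for 4.83% of all genes, and its exact two-sided permutation p was 0.1, the smallest that 3 against 3 libraries allow. Hoxb3 also had the highest transcript GC content of the members (64.4%, against 46.8 to 60.8% for the others), and after a correction for GC its log2 fold change was 1.83 (SE 0.76), with an unadjusted limma p of 0.0469 (adjusted p = 1.00), where 1.67% of all genes were below 0.05. The correction raised log2(value + 1) of Hoxb3 in gh18 from 6.95 to 9.74 and lowered it in the other 5 libraries, to between 5.94 and 7.32.

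Hoxc6 averaged 3.39 ± 5.88 (SD, n = 3) in Robo1+/+ LPs and 15.5 ± 14.7 in Robo1-/- LPs. Its log2 fold change was 1.88 (SE 1.52), and limma gave p = 0.256 (adjusted p = 0.858), with an exact two-sided permutation p of 0.4. Hoxc6 is labelled in the study's own plot of this comparison, so its direction here is not independent evidence. The neighbours that could be tested had similar values, with log2 fold changes of 1.70 (SE 1.79) for Hoxc4 and 1.58 (SE 1.51) for Hoxc10. Hoxc5, Hoxc8 and Hoxc9 did not pass the filter.

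The highest members of the other clusters gave 2.17 (SE 2.20) for Hoxa5 and 1.95 (SE 1.78) for Hoxd10 on the log2 scale. Their adjusted p by limma was 0.858 in both. The remaining 3 tested members, Hoxb2, Hoxb4 and Hoxb9, had log2 fold changes of 0.32 to 1.85. All 9 log2 fold changes were above 0, where 50.2% of all genes were. For 5 of the 9 the sign repeats the same division of libraries, 1 of 3 Robo1+/+ and 2 of 3 Robo1-/- with reads, and Hoxc4 differs from it by 1 read in gh15, so the count is not that of separate observations. A fold change on this scale understates that of genes with few reads.

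Single libraries decided these values. Without gh18, the Robo1-/- library without reads of the 12 genes, the log2 fold change of Hoxc6 was 3.40 (SE 1.16), with an unadjusted limma p of 0.0235 and an adjusted p of 0.938. Then 7 of 11 tested members, Hoxa11, Hoxb3, Hoxb9, Hoxc4, Hoxc6, Hoxc10 and Hoxd10, had an unadjusted p under 0.05, where 4.20% of all genes did, and none an adjusted one. Apart from Hoxb3, these members repeat the same division of libraries, with Hoxc4 differing by 1 read in gh15. The 7 are thus not separate observations. Without gh12 the log2 fold changes of Hoxa5, Hoxc4, Hoxc10 and Hoxd10 were 0.53, 0.49, 0.63 and 0.79, and Hoxc6 no longer passed the filter. Without gh03 they were 4.06, 3.10, 2.84 and 3.42, and that of Hoxc6 was 3.04. Of the 9, 1 changed sign with a library left out, Hoxb4 without gh15.

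**Figure D4:**
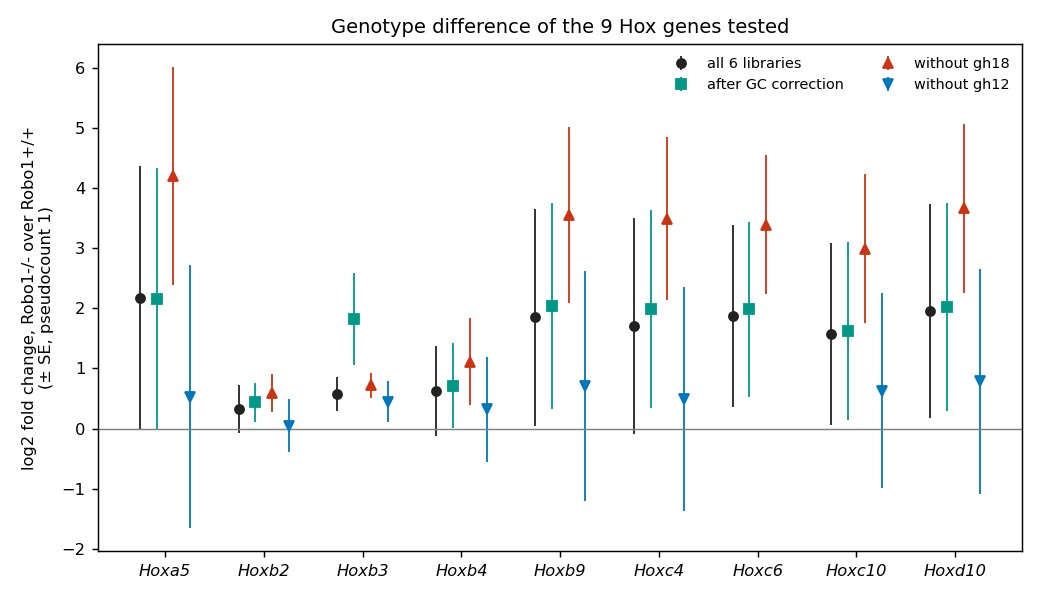
Log2 fold change (Robo1-/- over Robo1+/+, limma, pseudocount 1) with SE for the 9 Hox genes tested, from all 6 libraries, after GC correction, without gh18 and without gh12. With all 6 libraries the values run from 0.32 to 2.17, the points without gh18 lie above them and those without gh12 below, and Hoxc6 has no point without gh12.

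Partners and regulators of Hox genes were counted by list. Of 9 homeodomain partners of the TALE class, 7 were tested and 0 had an unadjusted limma p under 0.05. Pbx2, one of them, had 433, 433 and 397 in Robo1+/+ LPs and 493, 543 and 261 in Robo1-/- LPs, with overlap, since gh18 was the lowest of the 6. Meis2, which did not pass the filter, had 12.7, 0.78 and 0 in Robo1+/+ LPs and 5.75, 36.6 and 0 in Robo1-/- LPs, and had its reads in the libraries of the 12 Hox genes, except for 1 read in gh09; it was named after its values were seen. Meis1, its paralogue, had 252 to 518 in the 6 libraries.

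Polycomb complexes keep Hox genes silent and Trithorax complexes keep them active. Of 19 Polycomb genes, Cbx6 had no row, and none of the 19 rows tested for the others passed an unadjusted p of 0.05 by limma (11 higher and 8 lower, median log2 fold change 0.05, against 0.00 for all genes). Of the Trithorax list, 11 genes were tested and 0 passed (6 higher and 5 lower, median 0.09). For retinoic acid, which switches on 3′ Hox genes, 10 of 15 genes were tested and 0 passed (3 higher and 7 lower, median -0.38). Aldh1a3, an enzyme that makes retinoic acid and the highest of the list, had 1972, 6377 and 6008 in Robo1+/+ LPs and 5150, 6865 and 5425 in Robo1-/- LPs, with gh03 the lowest.

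Of 8 other homeobox genes of the Hox loci and the ParaHox group, 1 had a row, Cdx2, with 2 reads in gh03 and 1 in gh09. None of 17 noncoding RNAs of the Hox loci had a row under its own name. Of the 14 flanking genes, 12 had a row, and 0 of 12 rows tested under their symbols passed an unadjusted p of 0.05 by limma.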

How the data were processed

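Poly(A)+ RNA of 6 LP libraries, 3 per genotype by the labels, was analysed. The deposited values are a normalised signal: the authors mapped 75-base reads to NCBI37/mm9 with TopHat after removing repeats with bowtie2, counted reads per known-gene cluster and divided them by 1 DESeq size factor per library. The counting tool and its use of strand are not given in the sources used here. Whole reads were recovered from the value of 1 read in each library (all values whole within 0.006). Libraries held 9727191 to 17433868 reads, with 3 reads as the smallest number detected.

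The genotypes were compared with limma 3.58.1 (R 4.3.3, empirical Bayes trend, Benjamini-Hochberg) on log2(value + 1) for genes kept by filterByExpr of edgeR 4.0.16. Alternatives were DESeq2 1.42.0 and edgeR on recovered reads, TMM scaling, other filters and pseudocounts (0.5 and 5), a lowess GC correction and each library left out. The fit was tested on simulated data. Exon lengths, GC content and coordinates came from GENCODE M1 by symbol (lengths for 88.4% of rows). P-values measure the spread between pools of 2 animals. No pair of libraries agreed within sampling noise.

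The members, lists and tests were chosen with earlier results of these data known. Fold changes are given for Hoxc6, the highest member per kb in each cluster, the tested neighbours of Hoxc6, and members with an unadjusted limma p under 0.05. Other members are given by range and counts. From the lists, members with the highest mean were named, and outside this rule Meis2, Nr2f1, 7 flanking genes (Skap1, Skap2, Smug1, Lnp, Mtx2, Ttll6 and Calcoco2) and the markers set against the libraries with Hox reads were named after their values were seen. Also outside the rule were the luminal markers Kit, Elf5, Itgb3, Esr1, Gata3, Foxa1, Wnt4 and Tnfsf11, and Rara, Rxrb and Cyp26b1 of the retinoic acid list. Results for a few genes are not reported here.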

Additional observations from a re-analysis of the deposited data

How the results depend on the processing

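Hoxb2, Hoxb3 and Hoxb4 were counted as detected in every fit that left out a library (3 to 3 members), and 2 members had at least 10 reads in every library. The number of Hox genes with an unadjusted limma p under 0.05 was 1 after GC correction, Hoxb3, and ran from 0 to 7 with a library left out, the 7 being without gh18. It was 0 under the other 7 alternatives. The log2 fold change of Hoxc6 ran from 1.11 (pseudocount 5) to 2.42 (edgeR) and from 1.30 to 3.40 with a library left out, with adjusted p of 0.723 to 1.00 by limma, DESeq2 and edgeR. It had no value with a mean of at least 10 required or without gh12, since it did not pass the filter. Of the fold changes given, none changed sign for Hoxa5, Hoxb3, Hoxc4, Hoxc6, Hoxc10 or Hoxd10. No paired analysis was run, because no pairing of the libraries by litter or batch is given in the sources used here. Depth limits the members with few reads, since 4 of the 24 rest on 1 read.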
